A study of Homo sapiens with 27 samples.

Results

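In the prostate cancer subline 22Rv1-DR, the 3 libraries that carry replicate number 3 were set against the 6 libraries numbered 1 and 2, within the same arms. They are 3 of the 27 libraries of a study that knocked down the transcription factor GATA2 with short hairpin RNAs in 22Rv1-DR and 2 further castration-resistant sublines, ARCaPM-DR and DU145-DR, all labelled Ch-CRPC. Each line carried a control shRNA (Control), shGATA2a or shGATA2b, with 3 RNA-seq libraries per arm. The 3 replicate 3 libraries of 22Rv1-DR are Control, shGATA2a and shGATA2b, so every library, Control included, carried a hairpin. The 3 libraries were chosen by their gene expression values, since earlier results of these same data showed number 3 apart, so all differences between it and numbers 1 and 2 in 22Rv1-DR are descriptions, and no p-value is given for them. The labels do not say what a replicate number marks, nor that replicates were separate cultures, so p-values elsewhere measure the spread between samples, which may be technical.

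In culture, prostate cancer cells adjust several programmes to nutrients, crowding and time since feeding. Cells that leave the division cycle lower the genes that load and copy DNA, most of which are driven by E2F transcription factors. A load of unfolded protein in the endoplasmic reticulum activates the sensors ERN1 (IRE1), PERK and ATF6, which raise chaperones such as HSPA5. Low oxygen stabilises hypoxia-inducible factors, which raise glycolytic enzymes and VEGFA. Growth factor and stress signals switch on the immediate early genes of the AP-1 and EGR families, and FOXO factors and the p53 protein raise genes of arrest.

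The hairpin labels were checked on GATA2. In Control libraries its normalised count was 3444, 4307 and 3052 in replicates 1, 2 and 3. In shGATA2a it was 965.9, 1348 and 840.1, and in shGATA2b 806.3, 1738 and 1101. Control lay above both hairpins at every number, replicate 3 included, but 7 of these 9 values were not a whole number of reads in the deposited table, so the check is a limited one. The luminal prostate genes FOXA1 and HOXB13 and the androgen receptor target KLK3 were above 0 in every library, KLK3 at 24.88 to 121.3, and the 8 endothelial markers together summed to 2.5 to 9.78 normalised counts per library.

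The Control replicate 3 library stood apart from all others. In a principal component analysis of 13757 genes, component 1 held 42.8% of the variance and placed that library at 71.1, against -20.1 to 3.2 for the other 8. Component 2 held 21.2% and placed the hairpin replicate 3 libraries at -32.1 and -34.7, with the other 7 libraries between 0.5 and 15.3. The 3 libraries numbered 3 therefore did not form 1 group. Their depths were 15.89, 15.03 and 12.62 M (mega) recovered reads for Control, shGATA2a and shGATA2b, against 10 to 13.99 M for the other 6. Results are given below with and without Control replicate 3.

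**Figure D1:**
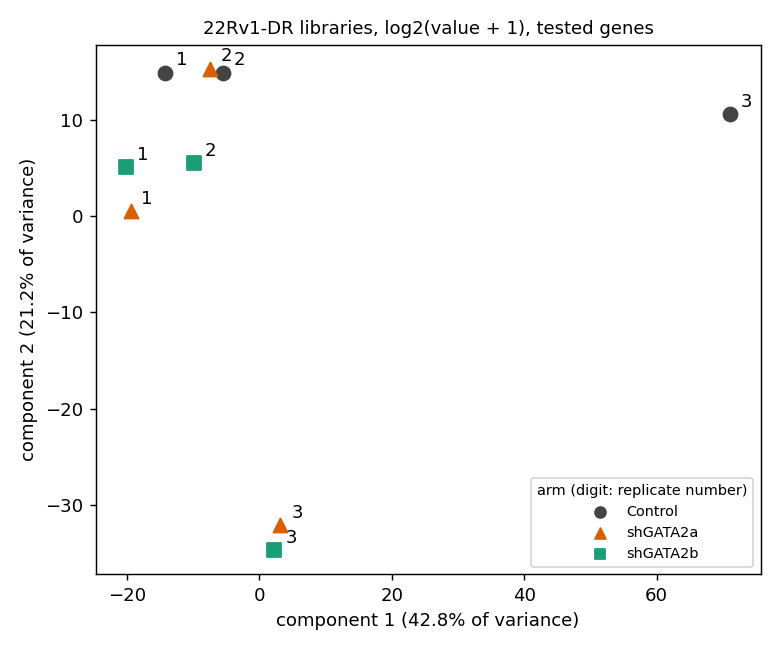
Principal components 1 and 2 of log2(normalised count + 1) over the tested genes in the 9 22Rv1-DR libraries; each point is a library, colour and shape give the arm and the digit the replicate number. Control replicate 3 sits alone at 71.1 on component 1, and the hairpin libraries numbered 3 sit together at -32.1 and -34.7 on component 2.

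How far replicate 3 lay from the rest differed by arm. The shift of a gene is its log2 value in replicate 3 minus the mean of replicates 1 and 2 of the same arm. Its SD over genes was 0.72 in Control, 0.422 in shGATA2a and 0.419 in shGATA2b. The difference between replicates 2 and 1 had SDs of 0.392, 0.433 and 0.357 in the same arms. At least 2-fold apart were 1971 genes in Control, 307 in shGATA2a and 331 in shGATA2b, against 302, 428 and 317 genes between replicates 1 and 2. By these measures the distance of replicate 3 was largest in Control, slightly below the distance between replicates 1 and 2 in shGATA2a and slightly above it in shGATA2b. A mean of 2 libraries varies less than a single one, so these distances are not on the same footing. Across genes, the shifts of shGATA2a and shGATA2b had a Pearson correlation of 0.741, while Control had 0.276 with shGATA2a and 0.296 with shGATA2b. These shifts share no library, but genes are not independent replicates and libraries of 1 number may share handling, depth and base composition. For the difference of replicate 2 from 1, the correlations between arms were 0.463 for the hairpins, 0.546 for Control with shGATA2a and 0.366 for Control with shGATA2b.

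With limma and the arm as a covariate, 911 genes were higher (6.62%) and 663 lower (4.82%) in replicate 3 at an adjusted p of 0.05. Called "set apart" here are those that passed and whose 3 replicate 3 values also lay on the same side of all 6 others. These were 823 higher genes (5.98%) and 596 lower genes (4.33%), 1419 in all (10.3%), 65 and 92 of them by at least 2-fold. Groups that did not overlap, whatever the fit, were found for 1577 higher (11.5%) and 1310 lower genes (9.52%). In another fit, with the arm and each replicate number as terms, replicate 3 against replicate 1 passed 1103 higher (8.02%) and 637 lower (4.63%) genes. Against replicate 2 it passed 1123 higher (8.16%) and 564 lower (4.1%). Left without the Control library of number 3, the first fit passed 1138 higher (8.3%) and 903 lower (6.59%) genes. Without the shGATA2a or the shGATA2b library of number 3 it passed 0, with 3512 and 3450 genes at an unadjusted p under 0.05. Without Control replicate 1, Control replicate 2, shGATA2b replicate 1 or shGATA2b replicate 2 it passed 996, 940, 480 and 786. The median log2 difference over all tested genes was 0.02 with all libraries and 0.00 without Control replicate 3, and list medians below are read beside these.

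The comparison of replicates 2 and 1 was not used to pick number 3 and can be tested. With all 9 libraries it gave 0 genes of 13757 (0% in either direction) with limma, 2398 at an unadjusted p under 0.05, 0 with edgeR and 210 with DESeq2. Without Control replicate 3, limma called 1885 genes higher and 1892 lower in replicate 2 (13.8% each). The 6 libraries of numbers 1 and 2 alone gave 1476 higher (10.9%) and 1403 lower (10.3%), 2879 genes in all (21.2%). Among the genes called without Control replicate 3, the median size was 0.37 on the log2 scale for replicate 2 against 1 and 0.58 for replicate 3 against both. Of the called genes, 122 and 137 were past 2-fold. The 2 fits called different shares of all genes, 27.6% and 14.9%, so sizes among called genes do not rank the 2 differences. Of the 1418 set apart genes tested in that fit, 323 also differed between replicates 2 and 1.

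The list of DNA replication and G1/S genes had a negative median in all 3 replicate 3 libraries. Of 48 tested, 11 were set apart lower and 0 higher, beside 4.33% of all genes set apart lower, and 46 of 48 had a negative log2 difference. The list's median difference was -0.53, and by arm -0.34 in Control, -0.51 in shGATA2a and -0.58 in shGATA2b. Some members were higher in Control replicate 3, such as the ligase LIG1 (shift 0.66) and the polymerase subunit POLD1 (0.54). The median was -0.58 without Control replicate 3, and 25 of 48 genes were past the threshold lower (6.59% of all genes in that fit). MCM5, a subunit of the replicative helicase, had normalised counts of 385.5, 221.3 and 216.2 in Control, shGATA2a and shGATA2b of replicate 3. In the other 6 libraries MCM5 ran from 464.2 to 691.5 with a median of 524, so the groups did not overlap, and its log2 difference was -1.02 (SE 0.17). PCNA, the sliding clamp of the DNA polymerases, stood at 255.9, 273 and 262.5 against 399.5 to 879, a log2 difference of -0.95 (SE 0.18). POLE2, a subunit of polymerase epsilon, stood at 35.05, 43.61 and 52.12 against 71.99 to 139.3.

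The helicase's activating GINS subunits were lower too. GINS4 had 101.9, 59.76 and 48.25 against 104 to 189.2, so its Control value lay just under the lowest of the others, and its log2 difference was -0.90. GINS2 differed by -0.79 and GINS3 by -0.78. E2F1, the transcription factor of the G1/S genes, had 145.9, 83.99 and 82.03 against 141.3 to 254.6: only its Control library overlapped with the others. MCM2 followed the same arrangement, with 683.8 in Control replicate 3 and 304.5 and 283.7 in the hairpins, against 540.8 to 1331, and 2 of its 9 values were not whole reads. MCM6 was a member that did not move with the rest, at 524.1, 482.1 and 474.8 against 427.5 to 623.5, a log2 difference of 0.01 (SE 0.13).

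The proximal promoters of 3 set apart replication genes are shown because each holds an E2F-type element, TTTCCCGC or its reverse complement, in the 250 bases before the RefSeq start (GRCh38.p14, sequences from RefSeq, given 5′ to 3′ on the gene's strand). Capitals mark the element.
PCNA, chr20:5126654-5126701, minus strand: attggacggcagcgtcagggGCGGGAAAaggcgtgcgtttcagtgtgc
GINS2, chr16:85688958-85689005, minus strand: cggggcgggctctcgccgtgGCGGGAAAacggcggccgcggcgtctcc
MCM7, chr7:100101557-100101604, minus strand: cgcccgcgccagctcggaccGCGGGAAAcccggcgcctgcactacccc
Of the 41 tested list members with a promoter in the table, 10 held these letters on either strand (24.4%), and 3 of the 8 set apart members did. Among all 35116 promoters 1.39% held them, and 2.04% of the promoters of tested genes. PCNA, GINS2 and MCM7 differed by -0.95, -0.79 and -0.40. A match is a description of the letters and not a measured site.

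The mitosis genes were closer to the other libraries than the replication genes. Of 45 genes of mitosis and G2/M, 2 were set apart lower, AURKB and CDC20, a share near the 4.33% of all genes, and the median difference was -0.18, or -0.17 without Control replicate 3, when CDC20 was no longer past the threshold. AURKB, a kinase of chromosome segregation, had 670.8, 677.6 and 664.9 against 930.6 to 1856, a log2 difference of -0.80. MKI67, the antigen of cycling cells, had 949.5, 722.8 and 775.9 against 828 to 1900, so the groups overlapped. TOP2A, which untangles chromosomes, had 2834, 2220 and 2313 and lay inside the range of the others, 1724 to 3454. Mitosis was instead a list on which replicates 2 and 1 differed: without Control replicate 3, limma called 24 of its 45 genes lower in replicate 2 and 0 higher (13.8% of all genes in each direction), with a median of -0.26 over the fit of all 9 libraries. In the replication list 10 of 48 were lower in replicate 2 in that test and 0 were higher. The largest part lay in the Control arm, where the replication median of replicate 2 minus 1 was -0.50, against 0.04 and -0.05 in the hairpin arms. Replication-dependent histone genes were read at low level, and 2 of 20 were set apart lower, beside 4.33% of all genes. HIST1H3B had 0, 0 and 0.9651 normalised counts in replicate 3 against 2.316 to 15.01.

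The endoplasmic reticulum unfolded protein response had a positive median in each replicate 3 library. Of 25 tested, 9 were set apart higher (5.98% of all genes) and 1 lower, with a median difference of 0.41. The medians by arm were 0.42 in Control, 0.37 in shGATA2a and 0.29 in shGATA2b, and 0.34 without Control replicate 3. HSPA5 (BiP), the chaperone that holds the sensors inactive, had 27070, 26440 and 25680 normalised counts in Control, shGATA2a and shGATA2b of replicate 3. In replicate 1 it had 10140, 10620 and 10460, and in replicate 2 it had 16560, 16050 and 16300. HSPA5 thus followed the replicate number with little spread between arms, its log2 difference was 1.02 (SE 0.20), and it was also 0.65 higher in replicate 2 than in 1 (limma, adjusted p = 0.000382 without Control replicate 3, in 3 of 3 arms). With all 9 libraries that adjusted p was 0.0929. Of the list's 25 genes, 6 were higher and 2 lower in replicate 2 than in 1 without Control replicate 3 (13.8% of all genes each way).

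Members of the degradation arm were higher as well. SEL1L, a scaffold of the ligase that removes misfolded proteins, had 2833, 4468 and 4627 against 1541 to 2780, a log2 difference of 0.83 (SE 0.12). HERPUD1, which serves the same complex, had 2614, 2037 and 2118 against 1037 to 1873. The sensor ERN1 had 893.3, 1284 and 1196 against 381 to 805.2, a difference of 0.83. XBP1, the transcription factor whose RNA ERN1 splices, had 3446, 2200 and 2231 against 1586 to 1989, so the hairpin values were close to the others and most of its difference of 0.54 came from the Control arm. The difference of XBP1 was 0.34 without Control replicate 3 and no longer past the threshold.

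The list did not move as 1 block. SDF2L1, a cofactor of HSPA5, was set apart lower, with 185, 217.2 and 235.5 against 242.5 to 382.1. MANF, a secreted factor of the stressed reticulum, had 283.6, 599.2 and 588.7 against 652.2 to 889.8 and did not pass the threshold, and SEC61B of the translocation channel had a shift of -1.90 in Control and of -0.00 and 0.16 in the hairpins. These 3 have short transcripts (SDF2L1 865, MANF 1153 and SEC61B 545 bases), against a list median of 3052. CALR, a lectin chaperone, had 14360, 10740 and 10500 against 10210 to 13600 and differed by -0.05 (SE 0.11). CRELD2 had 1906 in Control replicate 3, above all 6 others, and 621.9 and 585.8 in the hairpins, below all 6 (716.9 to 1027). Its knockdown difference in replicate 3, minus that in numbers 1 and 2, was -1.43 on the log2 scale, and it rests on the Control library.

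The endoplasmic reticulum stress element, CCAAT and CCACG with 9 bases of any kind between them, was searched on both strands in the 250 bases before the RefSeq start. It is shown, in capitals, for 3 set apart genes and for 2 that were not, because members with the element differed in response (GRCh38.p14, 5′ to 3′ on the gene's strand).
HSPA5, chr9:125241371-125241429, minus strand: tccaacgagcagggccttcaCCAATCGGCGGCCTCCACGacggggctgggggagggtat
XBP1, chr22:28800583-28800641, minus strand: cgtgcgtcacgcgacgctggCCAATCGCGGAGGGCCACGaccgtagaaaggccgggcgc
CANX, chr5:179698758-179698816, plus strand: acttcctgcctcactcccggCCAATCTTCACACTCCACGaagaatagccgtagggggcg
CALR, chr19:12938364-12938422, plus strand: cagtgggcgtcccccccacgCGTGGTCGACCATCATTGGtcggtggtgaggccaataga
CRELD2, chr22:49918534-49918592, plus strand: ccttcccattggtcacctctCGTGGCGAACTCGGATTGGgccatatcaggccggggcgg
In CALR and CRELD2 the element lies on the opposite strand, so the capitals are its reverse complement. Of 23 tested members with a promoter in the table, 7 held it (30.4%), against 0.074% of all 35116 promoters and 0.113% of those of tested genes. Among the 9 set apart members with a promoter, 3 held it. The 7 members with the element had log2 differences of 1.02 (HSPA5), 0.57 (CANX), 0.54 (XBP1), 0.45 (HSP90B1), 0.22 (PDIA6), 0.08 (CRELD2) and -0.05 (CALR). Presence of these letters therefore went with both high and near-zero differences.

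The hypoxia list also had a positive median, 0.36, with 7 of 29 set apart higher and 1 lower (5.98% and 4.33% of all genes). The arm medians were 0.24 in Control, 0.37 in shGATA2a and 0.40 in shGATA2b, and without Control replicate 3 the median was 0.35, with 11 genes higher and 1 lower past the threshold (8.3% and 6.59% of all genes). HK2, which commits glucose to glycolysis, had 27450, 19580 and 19530 against 8966 to 13510, a log2 difference of 1.09 (SE 0.14). VEGFA, the angiogenic growth factor, had 43790, 33480 and 32770 against 15300 to 20240, a difference of 0.95 (SE 0.15). ADM, a vasodilator peptide, had 1441 in Control and 780.1 and 738.3 in the hairpins against 361.3 to 658.8. All 3 lay above every other library, and for each the Control value was the highest. ADM differed by 0.67 without Control replicate 3 and was no longer past the threshold.

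Other hypoxia genes did not separate. SLC2A1, the glucose carrier GLUT1, had 4581, 5098 and 4930 against 3875 to 5102. PDK1, which diverts pyruvate from mitochondria, had 516.7 in Control replicate 3, inside the range of the others (453.9 to 630.4), and 740.6 and 683.3 in the hairpins, above it. TMEM45A was the member set apart lower, at 61.94, 169.6 and 139.9 against 204.3 to 272. The glycolysis list as a whole had a median of 0.07, with 2 of 20 set apart higher (HK2 and ENO2) and 1 lower, the lactate carrier SLC16A3, close to the 5.98% and 4.33% of all genes. The amino acid stress list driven by ATF4 had a median of 0.14, with 6 of 32 set apart higher and 1 lower, beside the same shares of all genes. Its lower member CHAC1, which degrades glutathione, had 131.2, 134.9 and 114.8 against 211.5 to 288.6.

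**Figure D2:**
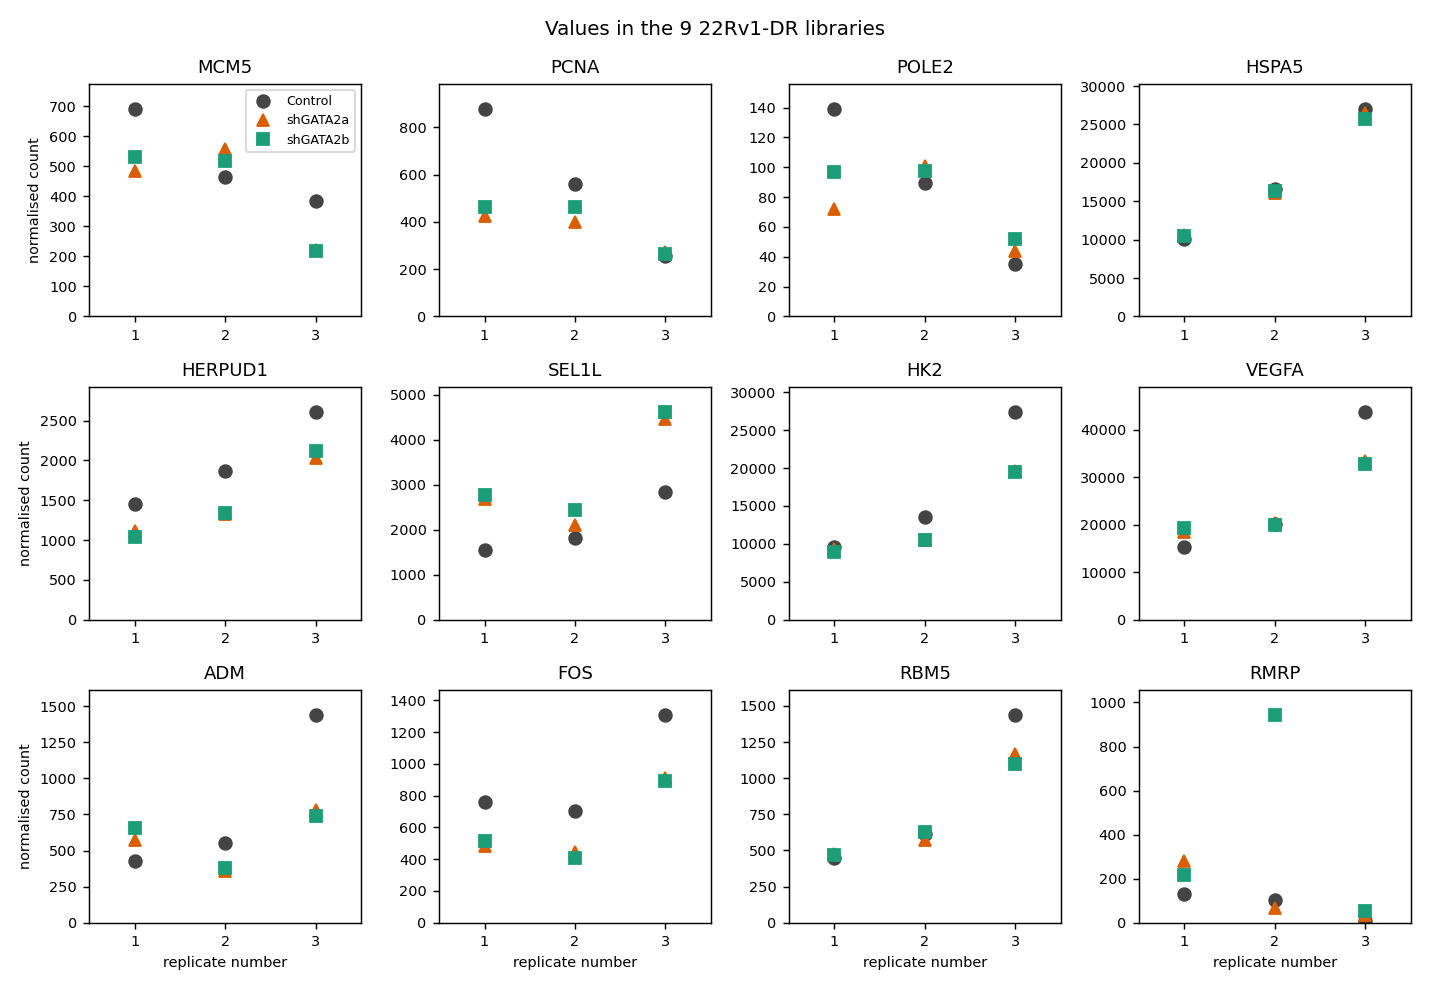
Normalised counts of 12 genes in the 9 22Rv1-DR libraries, each axis starting at 0; the horizontal position is the replicate number and colour and shape give the arm. MCM5, PCNA, POLE2 and RMRP are lower and the other 8 genes are higher in all 3 libraries numbered 3 than in the 6 others; HSPA5 runs from 25680 to 27070 in replicate 3 with the arms side by side at each number.

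The list of immediate early and ERK feedback genes had a positive median in every arm. Of 36 tested, 8 were set apart higher and 1 lower (5.98% and 4.33% of all genes), and 9 had a negative difference, with a median of 0.41 over all libraries, 0.41, 0.37 and 0.41 by arm, and 0.39 without Control replicate 3. FOS, a subunit of AP-1, had 1309, 910.2 and 893.7 against 407.6 to 757.7, a log2 difference of 0.93 (SE 0.12). KLF6 had 1162, 1208 and 1257 against 648.5 to 847. SPRED1, an inhibitor of the ERK cascade, had 3147, 2668 and 2830 against 1459 to 1936. EGR1 was not set apart: Control replicate 3 had 1395 and the hairpins 3241 and 3106 against 916.3 to 3115, with a shift of -0.86 in Control and positive shifts in both hairpins. In this list replicates 2 and 1 also differed, with 14 genes higher and 3 lower in replicate 2 without Control replicate 3 (13.8% of all genes each way), and the list is not one on which number 3 alone differed.

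Genes of arrest and of FOXO and p53 signalling had smaller positive medians. In the quiescence and FOXO list 7 of 27 were set apart higher and 1 lower (5.98% and 4.33% of all genes), with a median of 0.29 (0.32 without Control replicate 3). TXNIP, an inhibitor of glucose uptake, had 29640, 35160 and 35500 against 18370 to 23520, a log2 difference of 0.73. KLF2 was the member set apart lower, at 9.78, 19.38 and 21.23 against 28.38 to 42.53. Of 29 p53 targets, 5 were set apart higher and 0 lower, beside the same shares of all genes, with a median of 0.24. TNFRSF10B, a death receptor, had 7047, 4833 and 4779 against 2347 to 3796, and RRM2B, which supplies nucleotides for repair, had 1347, 982 and 955.4 against 489.8 to 887.6. The cell cycle inhibitor CDKN1A had 6822, 7905 and 7838 against 3953 to 7384, so its Control value overlapped. MDM2 had 3024, 2820 and 2868 against 1948 to 2719, above all others, but did not pass the threshold. Of these p53 targets, 13 were higher and 2 lower in replicate 2 than in 1 without Control replicate 3 (13.8% of all genes each way). In the quiescence and FOXO list 8 of 27 were higher and 6 lower in that test.

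Glucocorticoid-response and clock genes are known to respond to serum in culture. Of 13 glucocorticoid genes 3 were set apart higher (ZBTB16, GADD45B and KLF9; 5.98% of all genes), with a median of 0.37. ZBTB16 was no longer past the threshold without Control replicate 3. FKBP5, a defining target of the receptor, had 4241, 4087 and 4126 against 3360 to 4529, inside the range of the others, and TSC22D3 had 920.2, 570.2 and 564.6 against 449.1 to 797.3. Of 16 clock genes 2 were set apart higher, NR1D2 and CRY2, and without Control replicate 3 the fit passed 8 higher and 0 lower, against 8.3% and 6.59% of all genes. The clock median was 0.09 in Control against 0.37 and 0.51 in the hairpins. DBP, an output gene of the clock, was at 220.1 in Control replicate 3 and at 75.91 and 80.1 in the hairpins, on opposite sides of the other 6 libraries (105.5 to 143.8).

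Lists of mitochondrial genes had negative medians, furthest from 0 in Control. All 42 respiratory chain subunits tested had a negative log2 difference, 14 were set apart lower (4.33% of all genes), and the median was -0.47. By arm it was -0.99 in Control, -0.29 in shGATA2a and -0.29 in shGATA2b. The median was -0.31 without Control replicate 3, with 15 lower and 1 higher past the threshold (6.59% and 8.3% of all genes in that fit). NDUFA4 had 602.3 in Control replicate 3 and 2432 and 2547 in the hairpins against 3241 to 3720. Mitochondrial ribosomal proteins had a median of -0.44, 17 of 60 set apart lower, and arm medians of -0.66, -0.29 and -0.27. Cytoplasmic ribosomal proteins had 0 of 73 set apart, with medians of -0.70 in Control and -0.10 and -0.09 in the hairpins. Ribosome biogenesis and MYC targets went the other way in Control, with 0.16 against -0.31 and -0.36, and 4 of 30 were set apart lower. MYC was among these 4, at 1131, 1330 and 1368 against 1498 to 1951, and was not past the threshold without Control replicate 3.

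The median transcript length was 1158 bases in the respiratory chain list, 1396 in mitochondrial and 1017 in cytoplasmic ribosomal proteins, and the shift followed transcript length in all 3 arms. In the decile of genes with the shortest transcripts the median shift was -0.41 in Control, -0.25 in shGATA2a and -0.21 in shGATA2b. In the decile with the longest it was 0.26, 0.24 and 0.28. Genes set apart higher had a median transcript length of 5632 bases and those set apart lower 2066, against 3334 for all tested. GC content went with the shift in opposite directions in the arms: from the lowest to the highest decile the median ran from -0.10 to 0.40 in Control, from 0.26 to -0.25 in shGATA2a and from 0.22 to -0.24 in shGATA2b. After each library was adjusted for a smooth trend on length and GC, the replication median was -0.50, the unfolded protein response 0.28, hypoxia 0.31, and AP-1, EGR and ERK feedback 0.37. The adjusted medians were -0.24 for the respiratory chain (-0.47 before), -0.21 for mitochondrial ribosomal proteins (-0.44 before) and -0.04 for cytoplasmic ones (-0.31 before). Without Control replicate 3 these 3 adjusted medians were -0.15, -0.17 and 0.08. Those of replication, the unfolded protein response, hypoxia and AP-1, EGR and ERK feedback were then -0.60, 0.32, 0.29 and 0.45. That adjustment also removes any real difference that goes with length or GC.

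**Figure D3:**
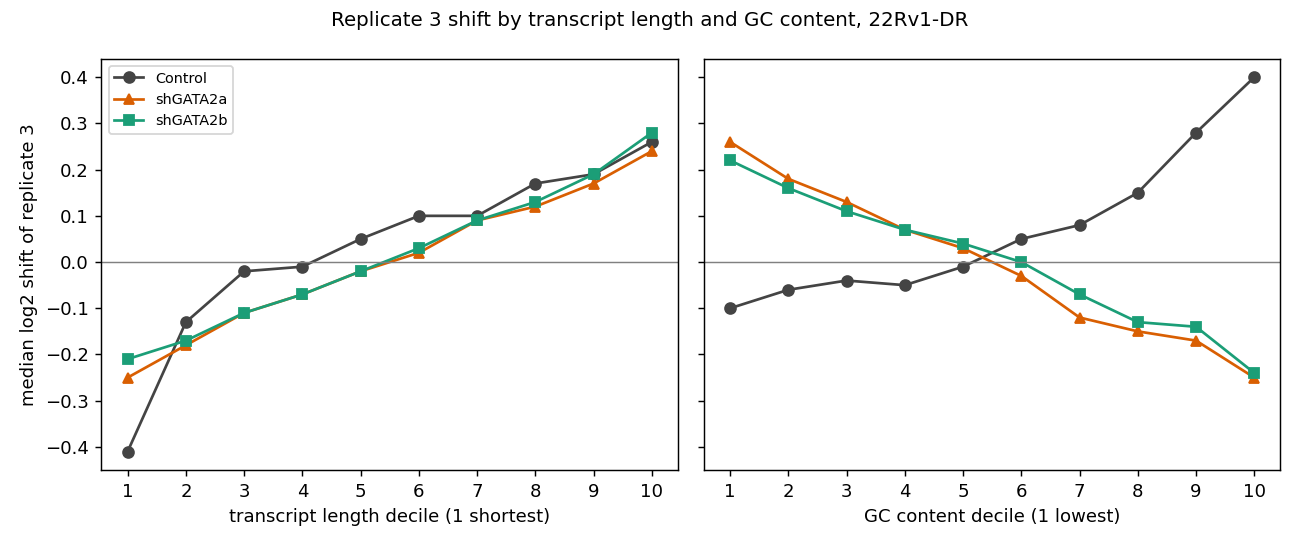
Median log2 shift of replicate 3 (replicate 3 minus the mean of replicates 1 and 2, same arm) by deciles of transcript length (left) and GC content (right) in 22Rv1-DR, 1 line per arm. All 3 arms run from below 0 to above 0 with length, while GC content goes up in Control, from -0.10 to 0.40, and down in both hairpins.

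**Figure D4:**
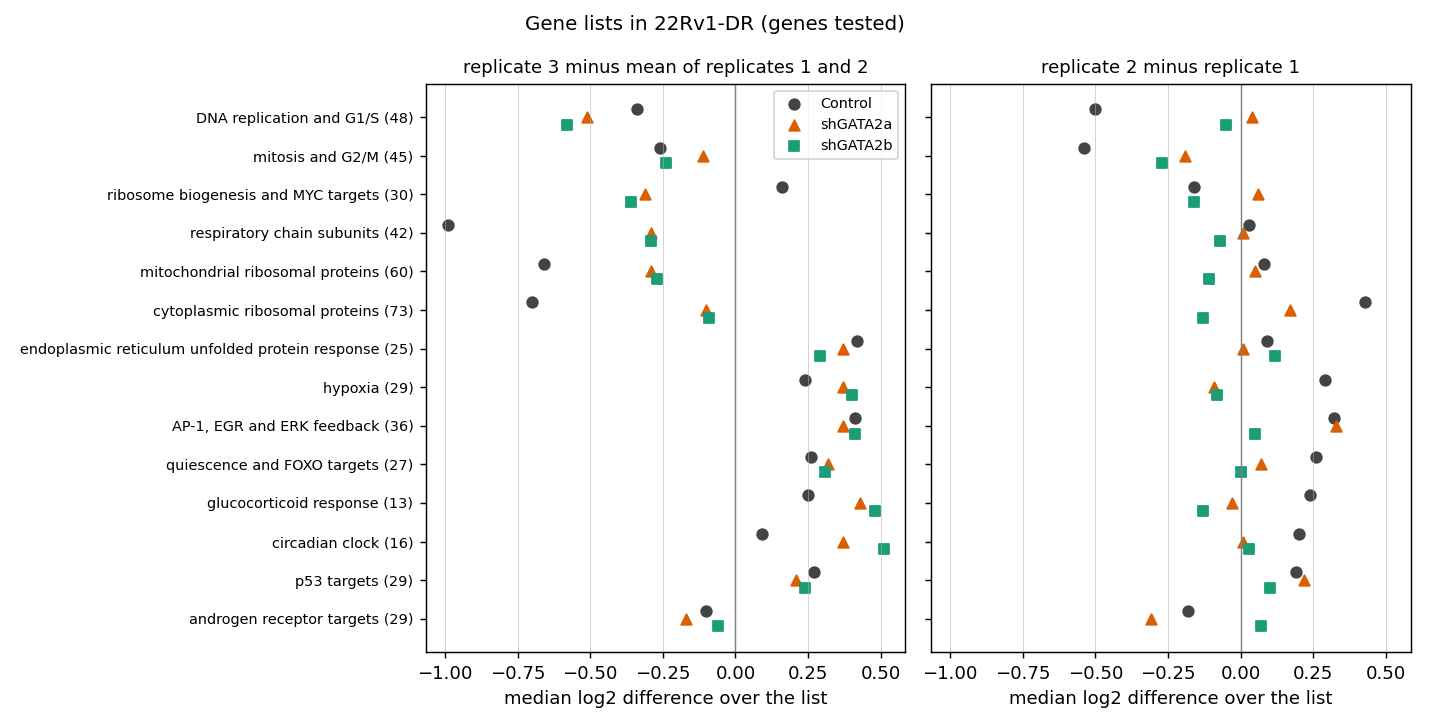
Median log2 difference over gene lists (genes tested in brackets) by arm, for replicate 3 minus the mean of replicates 1 and 2 (left) and for replicate 2 minus replicate 1 (right), on the same scale. On the left the 3 arms lie together for the unfolded protein response (0.29 to 0.42) and AP-1, EGR and ERK feedback (0.37 to 0.41), and Control lies apart for the respiratory chain (-0.99); on the right Control lies apart for replication (-0.50).

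The single genes with the largest differences were of mixed kinds. ZNF483, a zinc finger gene, had 537.9, 530.6 and 554.9 against 168.6 to 220, with the arms side by side, and a log2 difference of 1.47 after the length and GC adjustment. RBM5, a splicing regulator, had 1439, 1169 and 1099 against 448.1 to 626.7, and STON2, an endocytic adaptor, had 148.3, 138.1 and 152.5 against 45.63 to 65.36. CCDC88B rested on 1 library, with 320.3 in Control replicate 3 and 103.4 and 91.68 in the hairpins against 36.7 to 77.58. Its difference of 1.51 was 0.88 and no longer past the threshold without that library. CCDC144B likewise dropped from 1.31 to 0.56. Also among the 12 highest were LOC641364, LOC100507034, PPM1L, TMED8, SRGAP2P2 and ZNF699, at 1.22 to 1.45. SRGAP2P2 and CCDC144B have near-identical relatives, so their reads may be split.

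Among the 12 lowest, RMRP, the RNA of a ribonuclease that processes ribosomal RNA, had 8.965, 36.34 and 54.05 against 66 to 944.2. Its log2 difference was -2.83 (SE 0.53), and 1 library of the others, shGATA2b replicate 2, held the 944.2. UGT2B15, which inactivates androgens, and UGT2B10 are close paralogs whose reads may be shared. They had 123.9 to 166.4 and 19.3 to 30.16 in replicate 3 against 198.4 to 992.7 and 48.61 to 170.6. UGT2B15 also differed by -1.03 between replicates 2 and 1 (limma, adjusted p = 0.000341 without Control replicate 3, and 0.123 with all 9 libraries). TSPAN8, a tetraspanin, had 109.2, 271.4 and 260.6 against 384.9 to 606.3, and FAM111B, a gene of the replication phase, 89.65, 126.8 and 120.6 against 183.5 to 385.3. ATP5G1, a subunit of ATP synthase, had 88.02, 216.4 and 221 against 358.2 to 496.8. The other 6 were HBA2, SCARNA2, C19orf70, LOC90784, PIGW and NRGN, at -1.71 to -1.39, and HBA2 has a near-identical copy.

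Markers of lineage and of other cell types were read beside these lists. FOXA1, a pioneer factor of luminal cells, had 2439, 2342 and 2087 against 3217 to 4626, and HOXB13, a homeobox factor of the prostate, 353.7, 583.9 and 610.9 against 676.5 to 1037. These were the 2 of 13 luminal genes set apart, both lower (4.33% of all genes), and the list's median was -0.03. Androgen receptor targets had a median of -0.02, with 2 of 29 set apart higher and 2 lower, near the 5.98% and 4.33% of all genes. Of 16 basal markers 8 were tested and 0 were set apart. The 16 summed to 3100 to 3930 in replicate 3 and to 2380 to 3070 in the others. Of 22 neuroendocrine and neuronal markers 10 were tested, with 2 set apart higher, 1 lower and a median of -0.13. These 22 summed to 14300 to 15000 against 10600 to 14000, and ENO2 alone ran from 9177 to 9624 against 4393 to 7316. The 8 fibroblast markers, of which 3 were tested, summed to 4310 in Control replicate 3, with a range of 1880 to 4310 in replicate 3 and 1300 to 2000 in the other libraries. The 1 fibroblast marker set apart went the other way: LUM had 313.8, 483.8 and 456.5 against 530.4 to 661.4. The 11 blood markers, of which 3 were tested and 2 were at 0 in all 9 libraries, summed to 104 to 335 in replicate 3 and to 330 to 441 in the others; HBA2 is one of them. No endothelial marker passed the filter. The part of these markers in the differences above was not tested. In bulk libraries, fewer cells of a kind and less RNA per cell cannot be told apart.

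Whether libraries numbered 3 differed in the same way in the other lines was tested there. In DU145-DR, limma called 602 genes higher (4.51%) and 1083 lower (8.11%) of 13362 in replicate 3, 41 of the 1685 by at least 2-fold. Without Control replicate 3, shGATA2a replicate 3, Control replicate 1 or Control replicate 2 of that line the count was 256, 417, 1062 and 1064. In ARCaPM-DR it called 0 of 13079 (0%), with 4283 at an unadjusted p under 0.05, 0 by edgeR and 1277 by DESeq2. Without Control replicate 1 of that line limma called 2848, and without shGATA2a replicate 1 it called 705. Across 12331 genes the log2 differences of 22Rv1-DR and DU145-DR had a Pearson correlation of 0.237, and across 12077 genes those of 22Rv1-DR and ARCaPM-DR one of 0.057. Genes are not independent, and the labels do not say that a number is shared between lines.

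The lists that marked replicate 3 in 22Rv1-DR did not have the same values in DU145-DR. There 7 of 48 replication genes were higher and 3 lower (4.51% and 8.11% of all genes), with a median of 0.07, against -0.53 in 22Rv1-DR. The DU145-DR counts that follow stand beside the same shares. Of 25 genes of the unfolded protein response 1 was higher and 0 lower, with a median of 0.00 against 0.41, and of 28 hypoxia genes 0 were higher and 3 lower, with a median of -0.07 against 0.36. In AP-1, EGR and ERK feedback, 1 of 34 was higher and 1 lower. In DU145-DR 45 of 73 cytoplasmic ribosomal proteins and 13 of 42 respiratory chain subunits fell and 0 and 1 rose, with medians of -0.27 and -0.18, beside -0.31 and -0.47 in 22Rv1-DR. RMRP had a difference of -1.31 in DU145-DR (limma, adjusted p = 0.00954), and C19orf70 had a difference of -1.16 there (adjusted p = 5.12e-05). PTMS at -1.32 (adjusted p = 1.4e-05) and MACROD1 at -1.37 (adjusted p = 7.05e-05) had, with RMRP, the 3 largest falls in DU145-DR by the naming rule. PTMS and MACROD1 differed by -0.06 and -0.21 in 22Rv1-DR. Further named genes passed in DU145-DR in both directions, such as CCDC88B at -0.71 (limma, adjusted p = 0.00539) and STARD4 at 0.37 (adjusted p = 0.0311), both higher in 22Rv1-DR. ALPK2, NUDT4 and CLDN1 were 0.82, 0.79 and 0.79 higher there, beside 0.08, 0.66 and 0.30 in 22Rv1-DR. Differences between the lines were not tested. In ARCaPM-DR the hypoxia median was 0.22, with 0 genes called, and its shGATA2a replicate 3 library held 3.44 M reads.

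**Figure D5:**
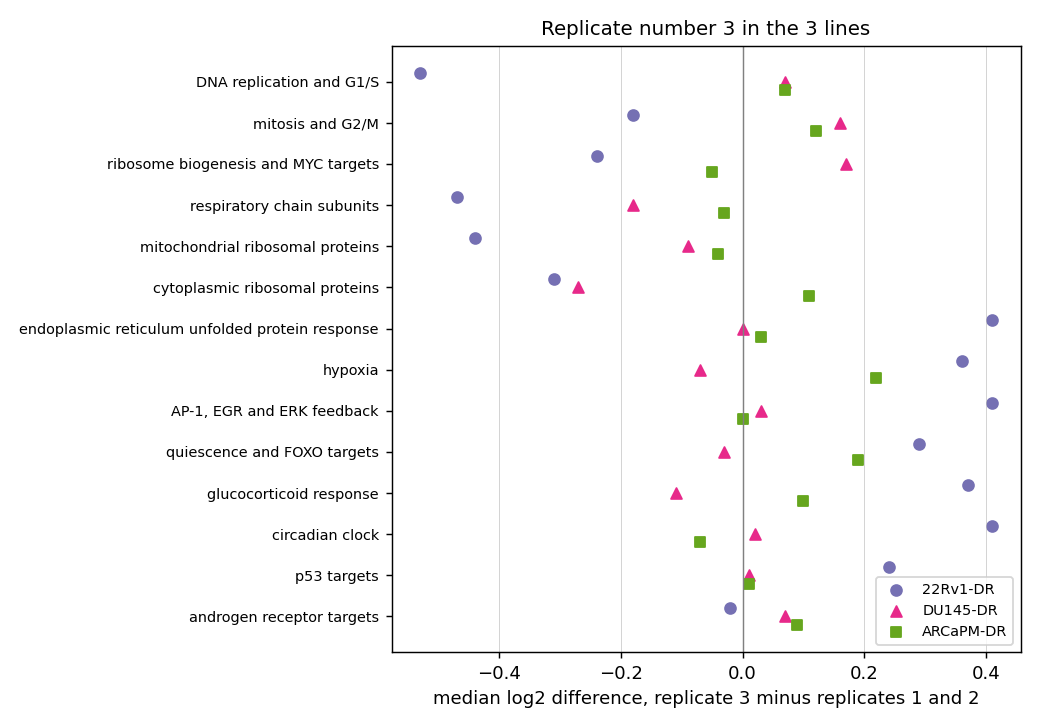
Median log2 difference of replicate 3 from replicates 1 and 2 over gene lists in the 3 lines (arm as covariate), 1 point per line. For replication 22Rv1-DR lies at -0.53 with both other lines at 0.07; for the unfolded protein response it lies at 0.41 with DU145-DR at 0.00 and ARCaPM-DR at 0.03.

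The knockdown comparison was then read by replicate number. Over the 9 libraries limma called 17 genes higher and 38 lower (0.4% in all) in the hairpins than in Control. Without the genes that hold values that are not whole reads the count was 1, so these calls rest largely on such genes. With the replicate number as a block the count was 166, and with numbers 1 and 2 only it was 1, of which 1 was among the 55. Leaving out Control replicate 1 or shGATA2a replicate 1 gave 0 genes (2028 and 1039 at an unadjusted p under 0.05). Leaving out Control replicate 2, shGATA2a replicate 3 or shGATA2b replicate 3 gave 1 gene each, and shGATA2a replicate 2, shGATA2b replicate 1 or shGATA2b replicate 2 gave 2 each. Without Control replicate 3 there were 37. PREX1, a Rac exchange factor, had 4269, 3912 and 5768 in Control, 1350, 1662 and 1740 in shGATA2a and 1304, 1530 and 1700 in shGATA2b. Its knockdown difference was -1.58 (adjusted p = 0.0115), and that difference in replicate 3, minus that in numbers 1 and 2, was -0.26. The GATA2 difference was -1.71 (adjusted p = 0.0256), and the same subtraction gave 0.06. IGF2, a growth factor gene with 8 of 9 values not whole, had a difference of -2.37 (adjusted p = 0.0256). FOXM1 at -0.84, POM121 at -0.78 and KLK3 at -1.38 did not pass, with adjusted p of 0.0917, 0.105 and 0.111. Of their 9 values each, 3, 8 and 1 were not whole, and of those of GATA2 7 were not.

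The interaction is the knockdown difference in replicate 3 minus that in numbers 1 and 2. It uses the values by which number 3 was chosen and a Control arm of 1 library that was known to stand apart, so it is given as a description. Past an adjusted threshold of 0.05 in limma were 1341 genes higher (9.75%) and 1250 lower (9.09%), 18.8% in all and 1375 by at least 2-fold. In 2285 of the 2591 the shift of Control was larger in size than the mean shift of the hairpins. It cannot be fitted without Control replicate 3. Without shGATA2a replicate 3, shGATA2b replicate 3 or shGATA2b replicate 2 the count was 602, 625 and 1646. Among the respiratory chain 22 of 42 were higher and 2 lower by that count, and among cytoplasmic ribosomal proteins 32 of 73 were higher and 1 lower. RPS27, a ribosomal protein, had 1232 in Control replicate 3 and 8999 to 10650 in the other 8 libraries. In the replication list 2 of 48 were higher and 4 lower, and the list's knockdown median was -0.57 in replicate 1, -0.06 in replicate 2 and -0.48 in replicate 3. For the unfolded protein response the knockdown medians were 0.02, -0.01 and -0.06, and 3 of 25 genes were higher and 4 lower in the interaction.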

How the data were processed

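RNA-seq of 27 libraries was analysed from 1 deposited table of 23228 genes. The authors deposited a signal per gene, normalised counts, and per the submitters' processing notes TopHat2 2.0.9 and Cufflinks 1.3.0 were used with hg19/GRCh37. No source used here gives the read counter, the scaling or the strand setting, so antisense and overlapping genes cannot be told apart. Of 433407 values above 0, 99.954% were whole multiples (within 0.005) of a library step and gave reads, and 199 values in 58 genes did not. The plan held a test for normalised values and another for raw counts, and the one for normalised values was used. The depth of each 22Rv1-DR library lay between 10 and 15.89 M (mega) recovered reads, and replicates of an arm differed by more than sampling noise (chi-square per degree of freedom of 10.6 to 103.7). Intervals of reads are not printed.

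Values were tested as log2(value + 1) with limma 3.58.1 (R 4.3.3, trend on the mean), which understates changes of low genes, after a filter of at least 10 in at least 3 libraries, with Benjamini-Hochberg adjustment over all genes tested and a threshold of 0.05. Arms were covariates and lines were fitted separately. edgeR 4.0.16 and DESeq2 1.42.0 on recovered reads, other scalings, filters, fits without each library and an adjustment for transcript length and GC (a spline with 4 degrees of freedom, added after the data were seen) were alternatives. Libraries of the same number deviated together from their arm means in 22Rv1-DR (lowest correlation 0.21 and median 0.41 over 9 pairs of libraries). The median of -0.21 for other numbers follows from taking off the arm means and is not separate support. Number 3 was chosen for standing apart, so its pairs were no open check. Any pairing by number comes from the data and not from the labels. The replicate 3 and interaction fits were also tested on simulated data.

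Named are the 12 set apart genes with the largest differences each way (mean at least 50, whole reads), up to 4 set apart members of each list, defining members, GATA2, IGF2, FOXM1, POM121, KLK3 and PREX1, the 5 smallest interaction p-values, and the 3 largest differences each way in the other lines. Defining members and the other members named outside that rule were picked after their values were seen. Some genes that the rule names are not reported here. The members and lists were chosen with earlier results of these data known. Promoters came from RefSeq, GRCh38.p14, and no coordinates of the deposited table were used.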

Additional observations from a re-analysis of the deposited data

Results flagged for a closer look

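In 22Rv1-DR the knockdown difference in replicate 3 minus that in replicates 1 and 2 passed an adjusted threshold of 0.05 in limma in 2591 genes, which marked it as a difference between groups. Since number 3 was chosen on these values and its Control arm is 1 library that stands apart, the count is a description and not a test of number 3. The 5 genes ranked first had values of 3.94 (C11orf10), 3.67 (RPSAP58), 3.06 (RPS27), 3.01 (GTF2A2) and 3.01 (NOP10) on the log2 scale. In each, Control replicate 3 was far below the other 8 libraries: C11orf10 had 42.38 normalised counts there against 638.2 to 808.4 in numbers 1 and 2, and 641.2 and 717.1 in the hairpin libraries of number 3. NOP10 had 35.05 against 326.8 to 386.8, and GTF2A2 had 83.95 against 602.4 to 739. RPSAP58 is a pseudogene whose reads may come from RPSA. Groups held 3 libraries each, so no library was tested for standing apart from its group.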

How the results depend on the processing

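The replicate 3 count of 1574 genes in 22Rv1-DR ran from 0 to 2041 when 1 library was left out, and was 0 against replicate 1 alone (3329 genes at an unadjusted p under 0.05) and 0 against replicate 2 alone (3148), in fits with 6 libraries. It stayed within 1.5 times under the other scalings, filters and tools run. The count of 0 for replicate 2 against 1 was 210 with DESeq2 and 4 after the length and GC adjustment, and 0 to 3777 with 1 library left out. In DU145-DR the count of 1685 was 892 without the trend, 850 after that adjustment, 395 without the arm, 2827 against replicate 1 alone and 256 to 2461 with 1 library left out. In ARCaPM-DR the count of 0 was 1277 with DESeq2, 1 after the adjustment, 713 against replicate 1 alone, 5465 against replicate 2 alone and 0 to 2848 with 1 library left out. The knockdown count of 55 was 3 without the trend, 1 without genes holding values that are not whole, 185 with DESeq2, 92 after the adjustment, 1 in numbers 1 and 2 only and 0 to 37 with 1 library left out. With the replicate block it was 166, and 28 with the replicate block and without genes holding values that are not whole. The interaction count of 2591 was 602 to 3125 with 1 library left out, and could not be fitted without Control replicate 3. The causes were not tested. Over the named genes, 3241 of the alternative values of the replicate 3 difference moved by no more than the SD of the gene's shift over the 3 arms, and 214 by more. For list medians, set against the SD of the 3 arm medians, the counts were 867 and 93. Where Control replicate 3 stood apart, that SD is wide, so the yardstick is a loose one. Of the named knockdown and interaction values, 215 kept their side of the threshold, 21 lost it, 6 gained it and 5 moved. No sign reversal of a called value was seen under the alternatives run. Depth of 10 to 15.89 M reads limits genes such as the histones.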

Other observations

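The liver-type genes ALB and APOA1 were picked after their values were seen. ALB, the main plasma protein, had 300.7, 220.5 and 207.5 normalised counts in Control, shGATA2a and shGATA2b of replicate 3 against 300.6 to 623 in the other 6 libraries. APOA1, an apolipoprotein, had 449.9, 220.5 and 178.5 against 268.3 to 519.9. In both the hairpin libraries of replicate 3 lay below every library of numbers 1 and 2, and Control replicate 3 lay above both of these. Without Control replicate 3 the log2 differences were -1.18 and -1.09. Among cholesterol genes, INSIG1, which holds back the sterol sensor, had 655.3, 625.9 and 628.3 against 291.1 to 362.1. STARD4, a sterol carrier, had 697.7, 586.3 and 610.9 against 211.9 to 356.4, while TM7SF2 and NSDHL of the synthesis pathway lay below all others. The list as a whole had no common direction: of 25 tested, 2 were set apart higher and 2 lower, beside 5.98% and 4.33% of all genes. Its median was 0.06, with 13 positive and 12 negative differences.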
